A study of Mus musculus with 24 samples.

Results

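Runx1, Runx2 and Runx3, which encode the RUNX transcription factors, and Cbfb, which encodes their shared partner, were taken by name as 4 genes of the 37131 in the mouse mm9 (NCBIM37) annotation. H3K4me3 and H3K27me3 were described at every annotated transcript start and over every gene body of these 4 genes. The study immunoprecipitated H3, H3K4me3 and H3K27me3 from FACS-purified supporting cells of the mouse gonad, in 24 samples. XY and XX progenitors were sorted at E10.5 from SF1-eGFP gonads, before the testis and ovary pathways diverge. Sertoli cells were sorted from XY Sox9-CFP gonads at E13.5, and pregranulosa cells, labelled granulosa cells by the submitters, from XX TESM-CFP gonads at E13.5. All 4 populations were on a C57BL/6 x CD1 background and carried a fluorescent reporter, and no knockout was named for any group. The TESM-CFP reporter, written TESMS-CFP in the methods of the study, is driven by a mutated form of the Sox9 enhancer TESCO. Each population and antibody had 2 replicates, and each replicate pooled cells from several embryos. SF1-eGFP, Sox9-CFP and TESM-CFP are different transgenes, so stage and reporter differed together between the progenitor and the E13.5 populations.

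The data were 8 lists of called peaks, 1 for each mark and population, and each was taken as pooled over its 2 replicates. The lists give the places where a mark exceeded the H3 control but not its strength. Because the replicates were pooled, their spread is unknown, no difference between populations was tested, and the values below describe these 8 lists. The lists differed in depth. For H3K4me3 they rested on 10162534 tags in XY progenitors, 49254553 in XX progenitors and 31104760 in Sertoli cells, and for H3K27me3 on 6470151, 33185400 and 44446456 tags. The depth of the pregranulosa lists is unknown. H3K27me3 regions covered 89.7 Mb of the autosomes in XY progenitors, 82.2 Mb in XX progenitors, 155.9 Mb in Sertoli cells and 129.8 Mb in pregranulosa cells. Of 9 Sertoli cell markers, 9 carried H3K4me3 without H3K27me3 in the Sertoli list and 0 in the pregranulosa list. Of 7 pregranulosa markers, 3 (Wnt4, Rspo1 and Bmp2) carried H3K4me3 without H3K27me3 in the pregranulosa list and 0 in the other lists, and the other 4, Foxl2 among them, carried both marks in all 4 lists.

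RUNX proteins bind DNA through the Runt domain, which recognises a short sequence read as TGTGGT on the strand in question and ACCACA on the other. CBFB does not bind DNA itself and strengthens the binding of the RUNX partner. Runx1 is required for the first definitive blood stem cells and is known as a factor of fetal granulosa cells, Runx2 is the master regulator of bone formation, and Runx3 acts in T cells, in sensory neurons and in the gut. Each Runx gene has a distal promoter, P1, and a proximal promoter, P2, which give proteins with different N-termini. H3K4me3 is laid down by Trithorax group enzymes at active and poised starts. H3K27me3 is laid down by Polycomb repressive complex 2 at repressed genes, and a promoter with both marks is called bivalent.

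The 4 genes had 34 annotated transcripts that began at 23 positions. Starts of a gene within 1 kb of each other were taken as 1 promoter, which gave 8 promoters. P1 was the most 5′ promoter with a protein-coding transcript, and P2 was the other promoter with the most protein-coding transcripts. P1 and P2 lay 128.7 kb apart in Runx1, 78.1 kb apart in Runx2 and 31.8 kb apart in Runx3. Runx1 had a further pair of starts downstream of P2, and Cbfb had a single start.

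The sequence just upstream of 6 promoters is shown because P1 and P2 differed in CpG content, and the marks below divided the same promoters. Each run is the 250 bases before the first annotated start of the promoter on mm9, read 5′ to 3′ along transcription, with every CG in capitals.
Runx1 P1 (chr16:92826312-92826561, minus strand): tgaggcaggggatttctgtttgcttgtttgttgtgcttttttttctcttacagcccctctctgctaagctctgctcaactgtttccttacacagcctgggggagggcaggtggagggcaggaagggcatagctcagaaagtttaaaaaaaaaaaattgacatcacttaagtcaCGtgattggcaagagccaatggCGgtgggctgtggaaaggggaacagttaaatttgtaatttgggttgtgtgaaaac
Runx2 P1 (chr17:44951747-44951996, minus strand): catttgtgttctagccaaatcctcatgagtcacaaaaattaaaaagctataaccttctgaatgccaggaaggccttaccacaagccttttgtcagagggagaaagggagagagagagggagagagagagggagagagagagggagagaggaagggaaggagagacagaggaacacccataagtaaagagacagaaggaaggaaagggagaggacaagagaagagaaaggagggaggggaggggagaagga
Runx3 P1 (chr4:134676317-134676566, plus strand): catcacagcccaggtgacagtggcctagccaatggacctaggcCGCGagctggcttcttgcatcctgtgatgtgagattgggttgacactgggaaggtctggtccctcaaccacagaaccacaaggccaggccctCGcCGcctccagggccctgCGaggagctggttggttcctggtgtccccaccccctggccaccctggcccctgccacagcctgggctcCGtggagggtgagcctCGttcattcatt
Runx1 P2 (chr16:92697574-92697823, minus strand): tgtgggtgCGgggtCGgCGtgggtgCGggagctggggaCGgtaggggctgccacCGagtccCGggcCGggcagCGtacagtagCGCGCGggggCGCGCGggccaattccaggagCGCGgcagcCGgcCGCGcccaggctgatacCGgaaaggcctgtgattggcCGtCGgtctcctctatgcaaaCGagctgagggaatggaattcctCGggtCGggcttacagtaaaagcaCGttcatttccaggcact
Runx3 P2 (chr4:134708161-134708410, plus strand): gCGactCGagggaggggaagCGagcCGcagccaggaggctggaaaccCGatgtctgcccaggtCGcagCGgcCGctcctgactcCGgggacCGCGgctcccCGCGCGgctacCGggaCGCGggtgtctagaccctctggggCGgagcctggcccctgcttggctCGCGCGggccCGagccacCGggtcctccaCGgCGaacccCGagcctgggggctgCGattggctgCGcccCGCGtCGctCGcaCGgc
Cbfb (chr8:107694324-107694573, plus strand): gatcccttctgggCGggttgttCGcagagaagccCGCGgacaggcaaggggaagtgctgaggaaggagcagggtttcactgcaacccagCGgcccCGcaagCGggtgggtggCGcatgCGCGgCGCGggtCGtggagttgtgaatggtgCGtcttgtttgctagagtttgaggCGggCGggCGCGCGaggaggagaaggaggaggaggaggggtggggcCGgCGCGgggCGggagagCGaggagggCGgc
The 250 bases upstream of P1 held 2 CG in Runx1, 0 in Runx2 and 7 in Runx3. The same stretch of P2 held 27 in Runx1 and 33 in Runx3, and that of Cbfb held 25. The wider window, 2 kb on each side of the first start, was read for all promoters. CpG observed over expected, the count of CG relative to that given by the C and G content, was 0.69 at Runx1 P2, 0.73 at Runx2 P2, 0.69 at Runx3 P2 and 0.77 at Cbfb. It was 0.30 at Runx1 P1, 0.24 at Runx2 P1 and 0.27 at Runx3 P1. The P2 values stood at percentiles 95.8, 97.3 and 95.6 of the 29891 promoters with a protein-coding start whose sequence could be read, and the P1 values at percentiles 48.0, 37.7 and 43.9. The median was 0.31 over all of these promoters, 0.46 over the 3561 that were bivalent in all 4 populations, 0.47 over the 9330 with H3K4me3 alone in all 4, and 0.17 over the 9437 unmarked in all 4.

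**Figure D1:**
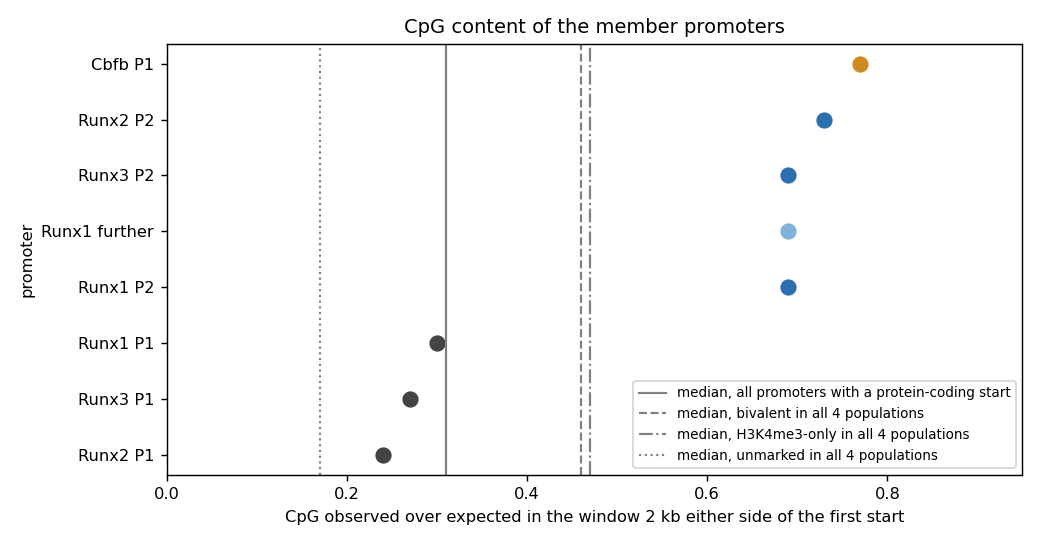
CpG observed over expected (x axis) in the window 2 kb either side of the first start of each of the 8 promoters (y axis, points), with vertical lines at the medians of all promoters, of those bivalent, H3K4me3-only and unmarked in all 4 populations. The 3 P1 points lie between 0.24 and 0.30, below the median of 0.31, and the 4 points of P2 and of the further Runx1 starts lie between 0.69 and 0.73.

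The P1 promoters also shared a tandem RUNX site, which is shown because it sits at the distal promoter of all 3 genes. The stretches of 30 bases below run 5′ to 3′ along transcription on mm9, with each ACCACA in capitals.
Runx1 P1 (chr16:92826270-92826299, minus strand): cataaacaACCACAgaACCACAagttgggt
Runx2 P1 (chr17:44951532-44951561, minus strand): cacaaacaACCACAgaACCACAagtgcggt
Runx3 P1 (chr4:134676418-134676447, plus strand): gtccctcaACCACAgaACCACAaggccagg
The first ACCACA began 20 bases downstream of the first annotated start in Runx1, 193 bases downstream of it in Runx2 and 141 bases upstream of it in Runx3. A pair of ACCACA separated by any 2 bases, searched on both strands from 250 bases before to 50 bases after the first start, was found at 4 of 29891 promoters (0.0134%), which were Runx1 P1, Runx3 P1, the first promoter of Card6 and a further promoter of Fcho1. The Runx2 copy lies outside that window. The single site TGTGGT or its variant TGCGGT, also searched on both strands and contained in the tandem motif, was found at 6545 of these promoters (21.9%). It had 2 matches at Runx1 P1, 1 at Runx2 P1 and 2 at Runx3 P1, and 0 matches at the P2 promoters of Runx1 and Runx3, at the further Runx1 starts and at Cbfb. These motifs were chosen after the sequences had been seen, and a match is not a bound site.

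The marks divided P2 from P1. A promoter was the window 2 kb on each side of its starts, and it was called marked when at least 1 bp of a region lay in it. H3K4me3 was present at 5 of the 8 promoters in XY progenitors, 5 in XX progenitors, 6 in Sertoli cells and 6 in pregranulosa cells, against 56.3%, 58.6%, 57.5% and 59.0% of the 29897 promoters of the annotation that held a protein-coding start. H3K27me3 was present at 4, 4, 6 and 5 of the 8, against 20.9%, 23.0%, 22.2% and 22.2%. Both marks were present at 4 of the 8 in each population, against 17.9%, 20.0%, 16.8% and 18.3%. These 4 were the P2 promoters of Runx1, Runx2 and Runx3 and the further Runx1 starts, and they were bivalent in all 4 populations, as were 11.9% of all promoters (95% exact binomial interval 11.6–12.3). Runx1 P2 and the further starts lie so close that the same regions marked both. Cbfb carried H3K4me3 and no called H3K27me3 in all 4 populations, as did 31.2% of all promoters (30.7–31.7). Lists of sorted cells do not say whether the marks of a bivalent promoter lie in the same cells or in different cells of the pool.

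The P1 promoters of all 3 Runx genes were unmarked in XY and XX progenitors, and at E13.5 each had its own pattern. Runx1 P1 carried H3K27me3 alone in Sertoli and pregranulosa cells. Runx3 P1 carried H3K27me3 alone in Sertoli cells and was unmarked in pregranulosa cells. Of the 22403 promoters without H3K27me3 in both progenitor populations, 6.80% carried it in Sertoli cells and 3.71% in pregranulosa cells. Runx2 P1 carried H3K4me3 alone in both E13.5 populations. Of the 12000 promoters without H3K4me3 in both progenitor populations, 2.01% carried it in both. Of the 8 promoters, 5 therefore had the same state in all 4 populations, and the 3 that differed were the 3 P1 promoters.

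**Figure D2:**
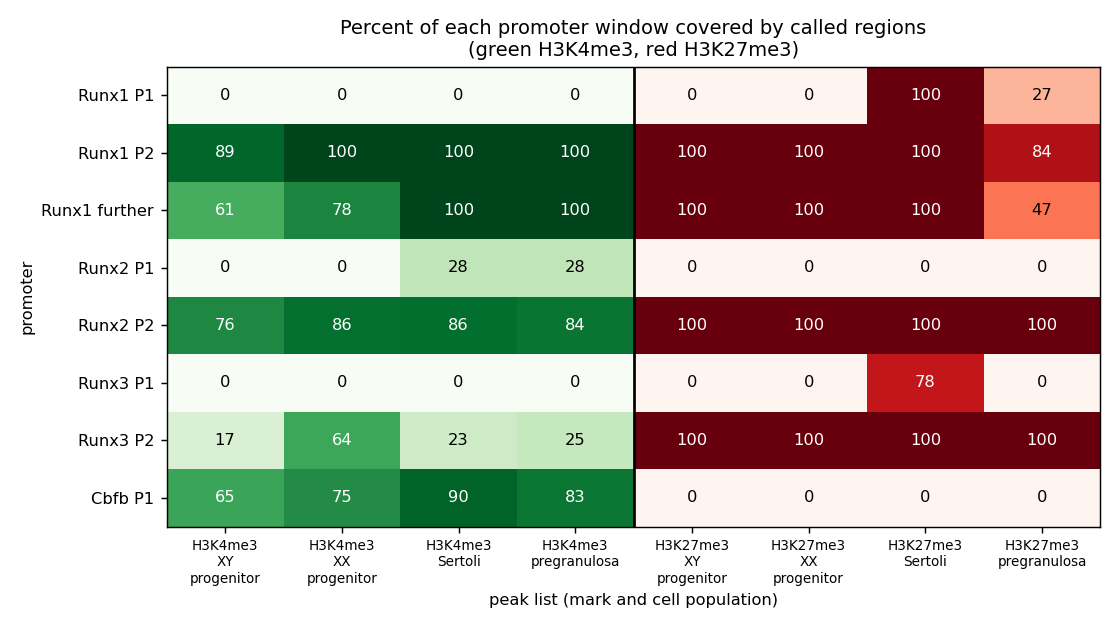
Percent of each promoter window (rows) covered by called regions in each of the 8 lists (columns, H3K4me3 in green and H3K27me3 in red, darker with more cover). The P1 rows of the Runx genes are at 0 in both progenitor populations for both marks, and the P2 rows hold both marks in every population.

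The arrangement of the Runx genes was uncommon among genes with promoters far apart. There were 2728 protein-coding genes whose P1 and P2 lay at least 10 kb apart. In 138 of them (5.06%) P2 was bivalent in all 4 populations. In 55 of the 2728 (2.02%, interval 1.52–2.62) P1 in addition lacked H3K4me3 in both progenitor populations, and Runx1, Runx2 and Runx3 were among these 55. The arrangement counted is the one described above for these 3 genes, so their place among the 55 was given in advance. Among the 138 genes with such a P2, a P1 of this kind was not rare. Taken by population, P2 was bivalent and P1 without H3K4me3 in 3.04% of these genes in XY progenitors, 3.26% in XX progenitors, 3.15% in Sertoli cells and 3.41% in pregranulosa cells. Runx1 and Runx3 had this arrangement in all 4 populations, and Runx2 had it in the progenitor populations, its P1 carrying H3K4me3 at E13.5.

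Runx1 lies on chromosome 16 from 92601712 to 92826311 on the minus strand. Its P1 had 2 starts, the first at 92826311, and no H3K4me3 region reached the 4056 bp window in any list. H3K27me3 covered 0 bp of that window in XY progenitors, 0 bp in XX progenitors, 4056 bp in Sertoli cells and 1091 bp in pregranulosa cells. The Sertoli region was 19.0 kb wide and held the start, reaching from 8383 bp upstream to 10662 bp downstream of it. The pregranulosa region was 7.9 kb wide and ended 910 bp upstream of the start, so it covered the upstream flank and not the start. Another pregranulosa region, 16.9 kb wide, lay from 31.1 kb to 14.2 kb upstream of the start, outside the gene body. In both progenitor populations the window was free of both marks. The H3K27me3 list of Sertoli cells had the most tags of the 3 with known depth, and the part of depth in this difference was not tested.

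At Runx1 P2, with its start at 92697573, the H3K4me3 region that held the start was 3569 bp wide in XY progenitors, 6012 bp in XX progenitors, 7010 bp in Sertoli cells and 10332 bp in pregranulosa cells. The widest was the pregranulosa region, which reached 6892 bp downstream of the start, against 1983 bp, 2705 bp and 3712 bp in the other lists. Among the 17644 promoters with H3K4me3 in pregranulosa cells its width stood at percentile 99.4, where the median was 2900 bp. The widths in the other lists stood at percentiles 86.3, 94.1 and 97.8, over medians of 2215 bp, 2958 bp and 2606 bp. The upstream edge differed less and lay 3306 bp, 3297 bp and 3439 bp from the start in XX progenitor, Sertoli and pregranulosa cells. In XY progenitors it lay 1585 bp from the start, and a separate H3K4me3 region followed upstream.

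H3K27me3 at Runx1 P2 had the reverse order at E13.5. The region that held the start was 15726 bp wide in XY progenitors, 19149 bp in XX progenitors, 35238 bp in Sertoli cells and 10173 bp in pregranulosa cells. It was widest in Sertoli cells, at percentile 89.3 of promoters with H3K27me3, and narrowest in pregranulosa cells, at percentile 42.3. In pregranulosa cells the region ended 1348 bp downstream of the start, against 7184 bp, 9758 bp and 5577 bp in the XY, XX and Sertoli lists respectively. The further Runx1 starts, at 92696255 and 92695895, lay at that edge. Their joint window of 4361 bp was covered by H3K27me3 in full in the other 3 lists and over 2031 bp in pregranulosa cells, whereas H3K4me3 covered 2666 bp, 3388 bp, 4361 bp and 4361 bp. The stretch downstream of P2 that was covered by H3K4me3 in pregranulosa cells was thus for the most part outside the pregranulosa H3K27me3 region. The Sertoli region reached 29660 bp upstream of the start, against 8541 bp to 9390 bp in the other lists. Counted from the first P1 start, it ran from 99.1 kb to 134.3 kb. Within that span lay separate upstream regions, from 101.5 kb to 114.4 kb in pregranulosa cells and from 107.2 kb to 113.5 kb in XX progenitors. The widths above leave these out.

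**Figure D3:**
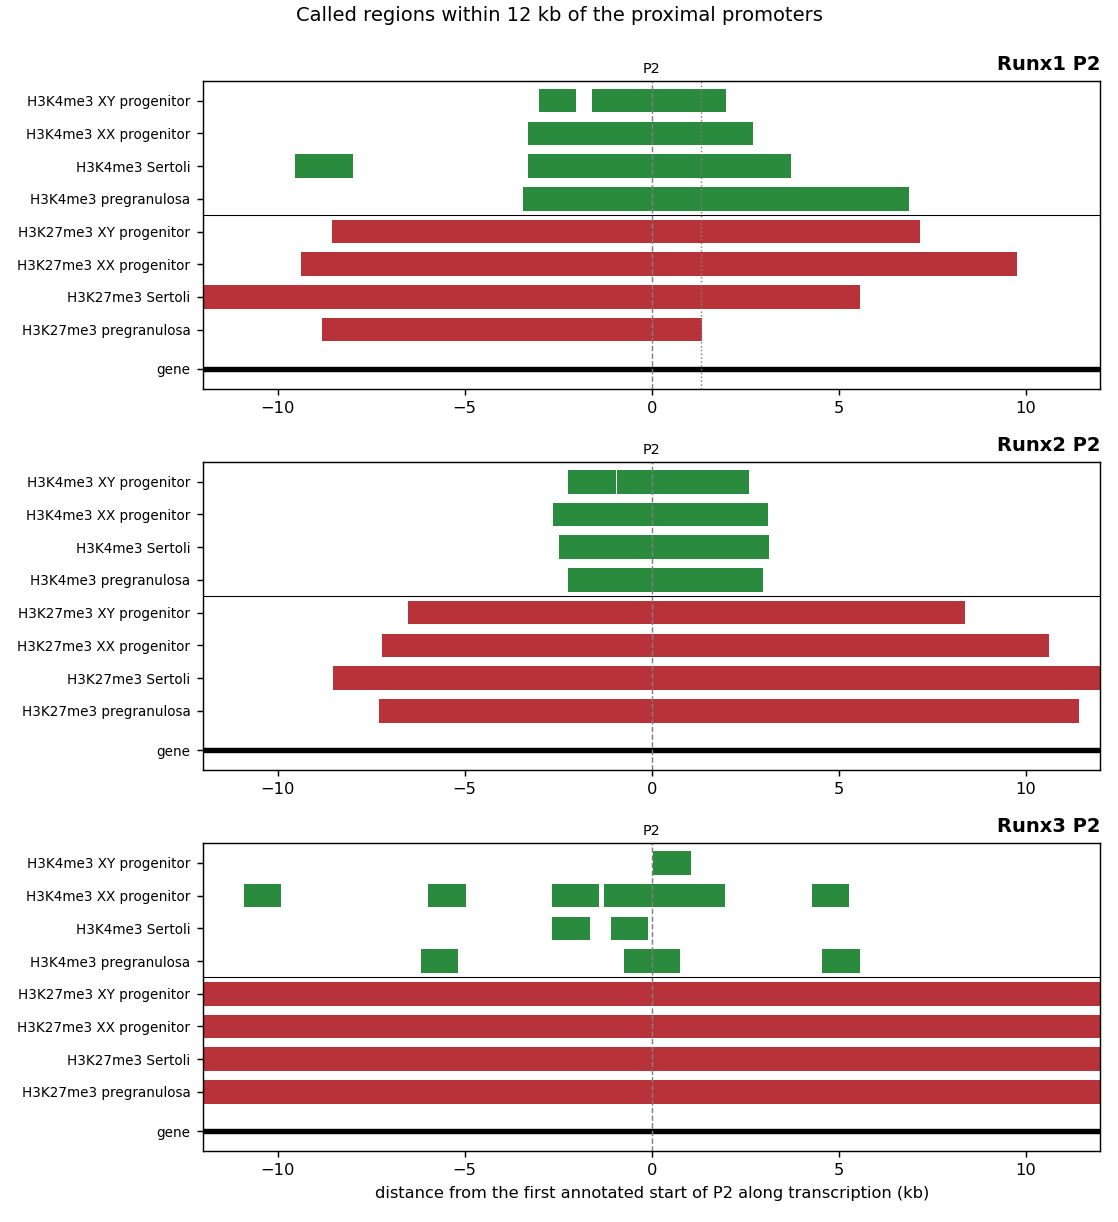
Called H3K4me3 (green) and H3K27me3 (red) regions within 12 kb of the first P2 start (0 on the x axis, in kb along transcription) of Runx1, Runx2 and Runx3, with a row for each list. At Runx1 the pregranulosa H3K4me3 bar runs to 6892 bp past the start and the pregranulosa H3K27me3 bar stops at 1348 bp, at the dotted line of the further starts.

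Runx2 lies on chromosome 17 from 44632936 to 44951746 on the minus strand. The annotation holds it under 2 overlapping gene identifiers, which were joined. P1 had 5 starts between 44951175 and 44951746. H3K4me3 covered 0 bp of its 4572 bp window in XY progenitors, 0 bp in XX progenitors, 1260 bp in Sertoli cells and 1265 bp in pregranulosa cells, and H3K27me3 covered 0 bp in all 4. The Sertoli region reached from 719 bp upstream to 540 bp downstream of the first start, and the pregranulosa region from 997 bp upstream to 267 bp downstream. These were narrow regions, at percentiles 8.3 and 6.7 of the widths at promoters with H3K4me3. The H3K4me3 lists rested on 10162534 tags in XY progenitors, 49254553 in XX progenitors and 31104760 in Sertoli cells, with pregranulosa depth unknown, and the part of depth in this difference was not tested.

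Runx2 P2 had 6 starts between 44871642 and 44873597 and was the most even of the promoters. H3K4me3 covered 4548 bp, 5115 bp, 5130 bp and 4980 bp of its 5956 bp window in the XY progenitor, XX progenitor, Sertoli and pregranulosa lists. H3K27me3 covered the whole window in all 4 lists. The H3K27me3 regions were 14894 bp, 17836 bp, 31638 bp and 18720 bp wide in the same order, and the Sertoli region was the longest, with its extra length downstream, where it reached 23125 bp past the first start against 8377 bp to 11422 bp in the other lists. The noncoding antisense gene Gm10497 starts inside this window, at 44872794, so H3K4me3 there cannot be assigned to Runx2 P2 alone. Supt3h, a protein-coding gene read from the other strand, starts inside Runx2 at 44914101, between P1 and P2. It carried H3K4me3 and no called H3K27me3 in all 4 populations, over 2294 bp, 2803 bp, 2939 bp and 2362 bp of its window. H3K4me3 of another gene was present inside Runx2 between P1 and the bivalent P2.

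Runx3 lies on chromosome 4 from 134676567 to 134733905 on the plus strand. P1 had a single start, at 134676567, with no H3K4me3 in any list. H3K27me3 covered 3107 bp of its window in Sertoli cells and 0 bp in the other 3 lists. The Sertoli region was 13720 bp wide and reached from 1106 bp upstream to 12613 bp downstream of the start. Progenitor regions lay close by within the gene, from 5909 bp to 10909 bp downstream of the start in XY progenitors and from 4652 bp to 12156 bp in XX progenitors. P1 was therefore outside the called region in progenitor cells and inside a longer one in Sertoli cells. The XY progenitor region was 5001 bp wide, about the peak size of 5000 bp of the H3K27me3 lists. These lists rested on 6470151 tags in XY progenitors, 33185400 in XX progenitors and 44446456 in Sertoli cells, and the part of depth in this difference was not tested.

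Runx3 P2 had 5 starts from 134708411 on, with 1 protein-coding transcript among 5, and lay inside the widest H3K27me3 regions of the 3 genes. These were 42922 bp wide in XY progenitors, 44004 bp in XX progenitors, 51554 bp in Sertoli cells and 47404 bp in pregranulosa cells, at percentiles 96.3, 87.8, 94.3 and 90.3 of promoters with the mark. All of them covered the whole 5941 bp window. H3K4me3 covered less of this window than of the other P2 windows, at 1001 bp, 3820 bp, 1342 bp and 1504 bp. The widest H3K4me3 region in the window was 1001 bp in XY progenitor and Sertoli cells, about the peak size of 1000 bp at which the lists were called. It was 3238 bp in XX progenitors and 1504 bp in pregranulosa cells. At the last start, 134710351, the window 2 kb on each side held 0 bp of H3K4me3 in Sertoli cells. That window held 1001 bp in XY progenitors, 2010 bp in XX progenitors and 831 bp in pregranulosa cells. In XX progenitor and pregranulosa cells an H3K4me3 region held the first start. In XY progenitors the region began 47 bp downstream of it, and in Sertoli cells the nearest region ended 100 bp upstream of it. With the regions reduced to the widest 75% of each list, Runx3 P2 carried H3K27me3 alone in XY progenitor and Sertoli cells, and the bivalent call there rests on these narrow regions.

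Cbfb lies on chromosome 8 from 107694574 to 107741886 on the plus strand, with a single start at its first base. H3K4me3 covered 2606 bp of its window in XY progenitors, 2997 bp in XX progenitors, 3607 bp in Sertoli cells and 3331 bp in pregranulosa cells. The regions were 2738 bp, 3772 bp, 5310 bp and 4741 bp wide, at percentiles 69.0, 73.4, 93.6 and 86.0 of promoters with H3K4me3. The E13.5 regions were thus wider than the progenitor regions of the same sex. H3K27me3 was not called in the window or anywhere in the gene body in any list. The nearest H3K27me3 regions within 20 kb lay upstream, in the progenitor lists, and ended 12800 bp before the start in XY progenitors and 14193 bp before it in XX progenitors. A gene body free of H3K27me3 in all 4 lists was common, at 49.6% of the 5639 autosomal protein-coding genes of at least 40 kb.

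Over the gene bodies, H3K27me3 was widest in Sertoli cells at all 3 Runx genes. It covered 14.2% of Runx1 in XY progenitors, 14.7% in XX progenitors, 37.0% in Sertoli cells and 10.3% in pregranulosa cells. For Runx2 the values were 17.0%, 13.8%, 43.4% and 20.0%. For Runx3 they were 79.8%, 87.4%, 99.4% and 76.2%. Summed over the 600750 bp of the 3 gene bodies, H3K27me3 covered 22.0%, 21.2%, 46.4% and 21.7%. The Sertoli lists as a whole also held the most H3K27me3, and among the 1607 autosomal protein-coding genes of at least 40 kb with H3K27me3 in all 4 lists, the Sertoli value was the highest in 48.7%. The median over these genes was 6.03%, 5.90%, 9.50% and 8.62% of the gene body. A highest value in Sertoli cells was thus common among long genes. Relative to XY progenitors, the covered length in Sertoli cells was 2.60 times as great in Runx1, 2.55 times in Runx2 and 1.25 times in Runx3, against a median of 1.42 over the 1607 genes. Relative to XX progenitors it was 2.51, 3.14 and 1.14 times, against a median of 1.38. The Runx3 ratios could not go much higher, since most of that gene was covered in both progenitor lists. With every list reduced to the number of regions of the shortest H3K27me3 list, Sertoli cells kept the highest value at each Runx gene, at 32.6%, 38.3% and 99.4%. This reduction kept the widest regions of each list, so the long Sertoli regions could not be dropped by it. The part of the larger Sertoli list in the order was not tested.

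In pregranulosa cells the Runx genes stood apart from one another. The covered length relative to XX progenitors was 0.698 times in Runx1 and 0.872 times in Runx3, against 1.45 times in Runx2 and a median of 1.25. The Runx1 value stood at percentile 8.6 of the 1607 genes, the Runx3 value at 15.5 and the Runx2 value at 61.8. Runx1 and Runx3 were thus higher in Sertoli cells than in XY progenitors and lower in pregranulosa cells than in XX progenitors, a combination found in 13.1% of these genes. Runx3 remained among the most covered genes in all 4 lists, at percentiles 99.0, 99.4, 99.1 and 98.1.

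**Figure D4:**
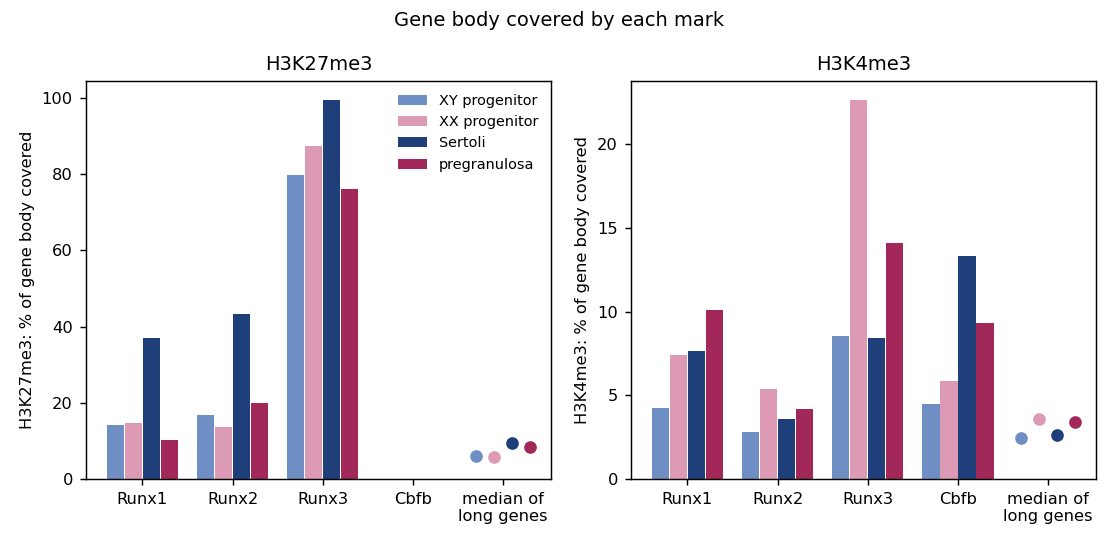
Percent of each gene body covered by H3K27me3 (left) and H3K4me3 (right), with a bar for each population and, at the right of each panel, points for the medians over the 1607 long genes with H3K27me3 in all 4 lists. Each value comes from a pooled list and has no error bar. The Sertoli bar is the highest for H3K27me3 at Runx1 (37.0%), Runx2 (43.4%) and Runx3 (99.4%), and Cbfb has no H3K27me3 bar.

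The lists differed in which bases of Runx1 carried H3K27me3. Of the gene body, 9890 bp (4.40%) were covered in all 4 lists, around P2. In the Sertoli list alone 55234 bp (24.6%) were covered, between P1 and P2, in a row of separate regions from P1 to the P2 region. Progenitor cells had a further region at the 3′ end of the gene, from 213.4 kb to 227.3 kb past the first start in XY progenitors and from 216.1 kb to 223.8 kb in XX progenitors, and no region was called there in Sertoli or pregranulosa cells. In all, 9247 bp were covered in both progenitor lists and not in Sertoli cells, and 13476 bp in both and not in pregranulosa cells. No base was covered in the pregranulosa list alone.

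In Runx2 the Sertoli list held every base that both progenitor lists held. H3K27me3 covered 39479 bp (12.4%) of it in all 4 lists, at P2 and in a domain near the 3′ end that reached from 241.5 kb to 271.0 kb past the first start in XY progenitors. The noncoding gene Gm16317 starts in that domain and carried H3K27me3 alone in all 4 populations. Of the bases covered in both progenitor lists, 0 bp were uncovered in Sertoli cells and 1380 bp in pregranulosa cells. In the Sertoli list alone 68234 bp (21.4%) were covered, in regions spread between P2 and the 3′ end, and 19108 bp were covered in both E13.5 lists and in neither progenitor list. In Runx3, 40776 bp (71.1%) were covered in all 4 lists, and 5793 bp (10.1%), at P1 and between P1 and P2, in the Sertoli list alone. The 5001 bp covered in the other 3 lists and not in pregranulosa cells were the XY progenitor region between P1 and P2.

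**Figure D5:**
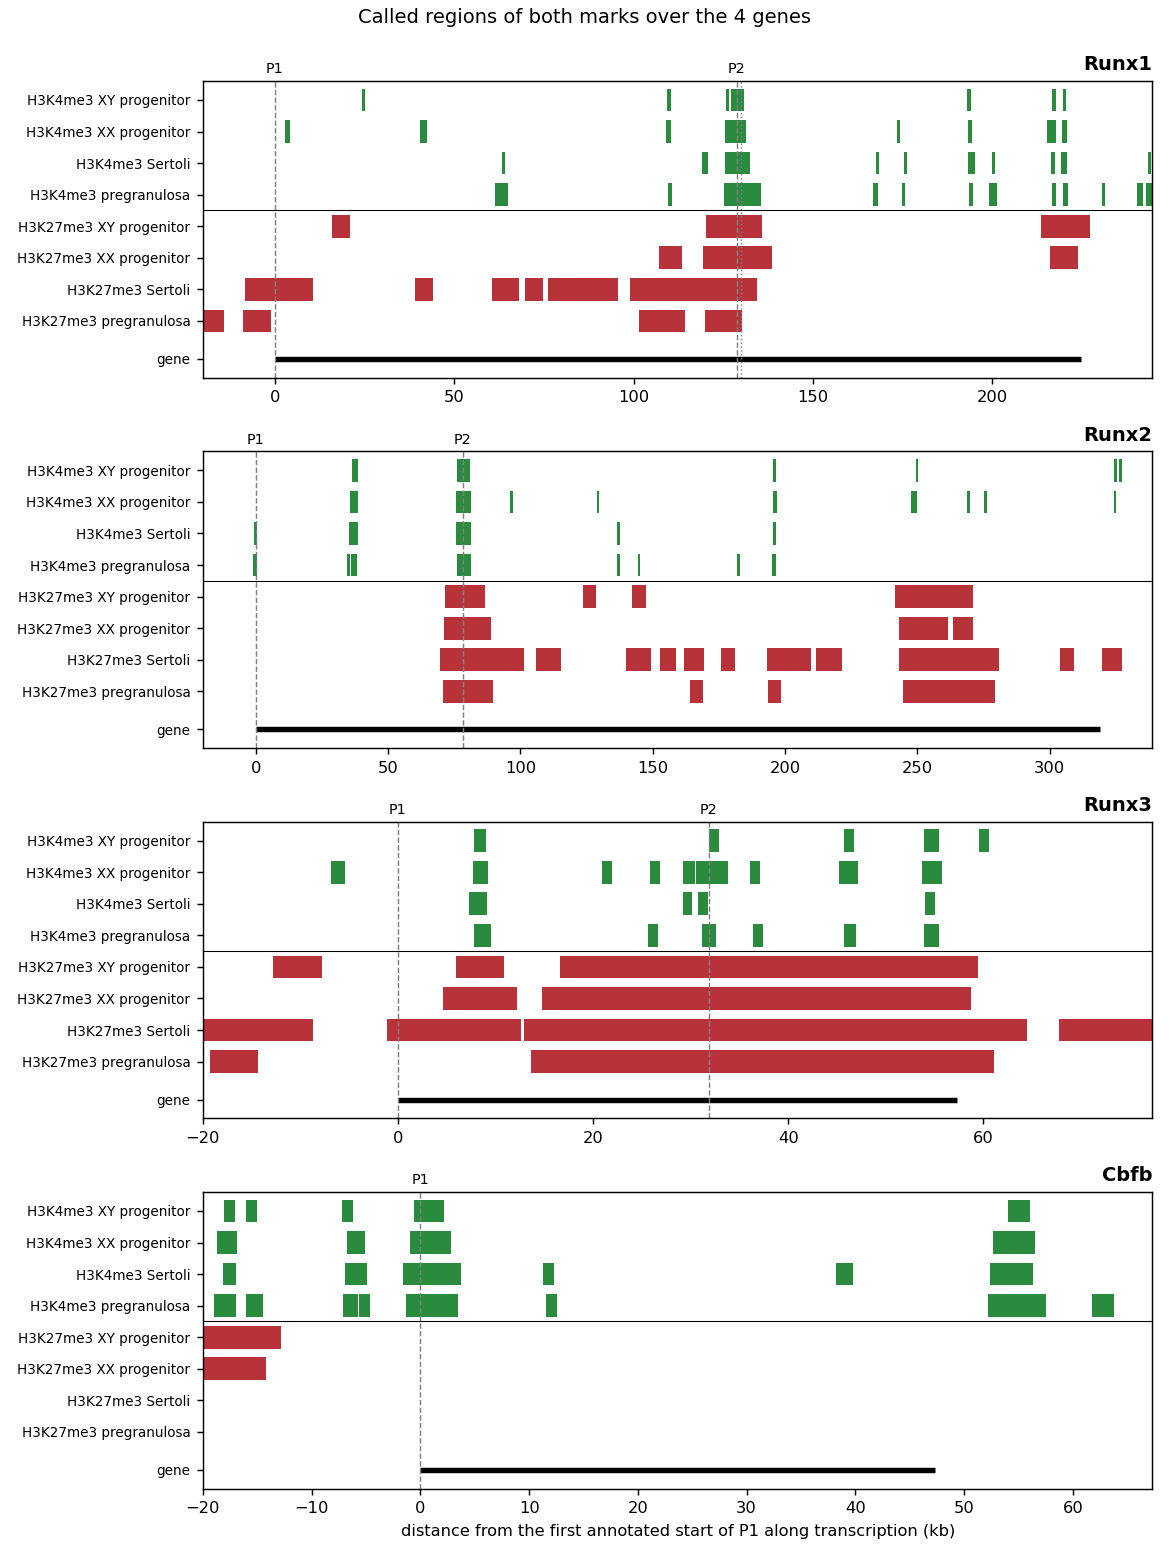
Called H3K4me3 (green) and H3K27me3 (red) regions over Runx1, Runx2, Runx3 and Cbfb and 20 kb on each side, by distance from the first P1 start along transcription (x axis, kb), with a row for each list and the gene as a black bar. Dashed lines mark P1 and P2 and the dotted line the further Runx1 starts. Within the gene bars the Sertoli H3K27me3 row is the most filled of the 4 at each Runx gene, and Cbfb has no H3K27me3.

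H3K4me3 also lay inside the genes away from any annotated start of theirs. Runx1 held 14 such places, of which 3 had H3K4me3 in all 4 lists, Runx2 held 10, of which 2 did, Runx3 held 6, of which 2 did, and Cbfb held 2, of which 0 did. In 1 list only were 6 of the places in Runx1, 6 in Runx2, 1 in Runx3 and 1 in Cbfb. How many such places other genes hold was not measured. The Runx2 place shared by all 4 lists and nearest P1, 36.6 kb from it, was the start of Supt3h. In Runx3 the shared places lay 8.4 kb and 54.7 kb from the first start, and the latter overlapped annotated exons over 1105 bp and H3K27me3 in all 4 lists. In Runx1 the 2 shared places at the 3′ end, 220.2 kb and 217.0 kb from the first start, lay within the progenitor H3K27me3 region and had H3K4me3 without H3K27me3 in both E13.5 lists. The third Runx1 place, 194.2 kb from the first start, had no H3K27me3 in any list. At the place 63.2 kb from the Runx1 start, H3K4me3 covered 3380 bp in pregranulosa cells with no H3K27me3, and 1001 bp in Sertoli cells, where H3K27me3 covered all 3380 bp.

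As a share of the gene body, H3K4me3 covered 4.26%, 7.39%, 7.66% and 10.1% of Runx1 in the XY progenitor, XX progenitor, Sertoli and pregranulosa lists. Runx2 had 2.85%, 5.36%, 3.61% and 4.21%, and Runx3 had 8.52%, 22.6%, 8.45% and 14.1%. Cbfb had 4.51%, 5.87%, 13.3% and 9.33%. Runx1 was highest in pregranulosa cells and Cbfb in Sertoli cells, whereas Runx2 and Runx3 were highest in XX progenitors. The part of depth in this order was not tested. The medians over the long genes were 2.44%, 3.59%, 2.66% and 3.44%.

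The genes next to the members were read at their most 5′ protein-coding start. Setd4 and Clic6 flank Runx1, with Setd4 at H3K4me3 alone in all 4 populations and Clic6 unmarked but for H3K27me3 over 3052 bp in Sertoli cells. Clic4, next to Runx3, carried H3K4me3 in all 4 populations and in Sertoli cells also H3K27me3, over 3259 bp of its window, while Syf2 on the other side carried H3K4me3 alone. Clic5, next to Runx2, was bivalent in all 4, and Cdc5l carried H3K4me3 alone. Beside Cbfb, D230025D16Rik carried H3K4me3 alone in all 4 populations, the state of Cbfb itself, and Ces4a was unmarked in all 4. A gene of the Clic family of chloride channels was thus the next coding gene beside each Runx gene. Its start lay 115.7 kb (Clic6), 307.4 kb (Clic5) and 94.8 kb (Clic4) from the near edge of the gene body. Clic6 and Clic4 gained an H3K27me3 call in the Sertoli list and Clic5 did not change. Of all promoters without H3K27me3 in both progenitor populations, 6.80% gained it in that list, and a link between these genes and the Runx promoters was not tested.

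Of 20 genes for partners and corepressors of RUNX proteins, all were found in the annotation. At their most 5′ protein-coding start, 10 carried H3K4me3 alone in all 4 populations, 5 were bivalent in all 4 and 5 differed, against 36.8%, 13.7% and 22.6% of 22265 protein-coding genes. Those with H3K4me3 alone included Tle1 and Tle4, Groucho-type corepressors, the histone deacetylase Hdac1 and the acetyltransferase Ep300. The 5 bivalent genes were Runx1t1, Ets1, Myb and Cebpa, transcription regulators of blood and other lineages, and Crebbp, an acetyltransferase related to Ep300. Kat6a and Tle2 were bivalent in both progenitor populations and carried H3K4me3 alone at E13.5. At Kat6a, H3K27me3 covered 2593 bp and 2719 bp in XY and XX progenitors and 0 bp in Sertoli and pregranulosa cells, and at Tle2 it covered the whole window in both progenitor populations and 0 bp at E13.5. Tle3 had the opposite course, with 0 bp in both progenitor populations, 2954 bp in Sertoli cells and 223 bp in pregranulosa cells. Cbfa2t3, a corepressor of the same family as Runx1t1, was unmarked in progenitor cells and covered in full by H3K27me3 in both E13.5 populations. Hipk2, a kinase, gained 808 bp of H3K27me3 in pregranulosa cells.

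Of 20 known RUNX targets 19 had a protein-coding start in the annotation. Gfi1, annotated there without a protein-coding transcript, was not used. At these, 7 were unmarked in all 4 populations, 2 were bivalent in all 4, 1 carried H3K4me3 alone in all 4 and 9 differed, against 26.1%, 13.7%, 36.8% and 22.6% of all genes. The unmarked targets were genes of blood cells (Mpo, Il3, Csf2, Cd4 and Cd8a) and of cartilage (Col10a1 and Mmp13). Ntrk3 and Ihh, a neurotrophin receptor and a hedgehog ligand, were bivalent in all 4, and Vegfa carried H3K4me3 alone. Among the 9 that differed, taken in alphabetical order up to 6, H3K27me3 at Csf1r, the receptor of macrophage growth factor, was called in Sertoli cells alone, over 2891 bp. H3K4me3 at Csf1r was likewise called in Sertoli cells alone, over 840 bp, so it was bivalent there and unmarked in the other lists. Itga2b, a platelet integrin, was covered by H3K27me3 over 2565 bp in XY progenitors, 3466 bp in XX progenitors, the whole window in Sertoli cells and 0 bp in pregranulosa cells. H3K4me3 covered 622 bp, 571 bp, 291 bp and 540 bp of the Itga2b window in the same order. Gfi1b, a blood repressor, was covered in full by H3K27me3 in all 4 lists, with 1001 bp of H3K4me3 in XX progenitor and Sertoli cells. Sp7, the bone regulator downstream of Runx2, was likewise covered in full, with H3K4me3 over 1487 bp, 3060 bp, 0 bp and 1843 bp. Ibsp had H3K4me3 over 0 bp, 683 bp, 519 bp and 965 bp and no H3K27me3, and Bglap had H3K4me3 over 48 bp, 521 bp, 126 bp and 879 bp with H3K27me3 over 2456 bp in XY progenitors and 3081 bp in Sertoli cells. Spp1, another bone target that differed, was unmarked in both progenitor populations. It carried H3K4me3 alone at E13.5, over 3428 bp in Sertoli cells and 337 bp in pregranulosa cells.

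Blood and endothelial cells express Runx1, so their markers were read in the same way. Of 8 such markers, 4 (Pecam1, Tek, Tie1 and Ptprc) were unmarked in all 4 populations, 2 (Kdr and Tal1) were bivalent in all 4 and 2 differed. The shares over 22265 protein-coding genes were 26.1%, 13.7% and 22.6%. The 2 that differed, Cdh5 and Gata1, carried H3K4me3 in pregranulosa cells alone, over 1001 bp and 943 bp of the window. Both lengths are near the 1000 bp peak size in the headers of the other H3K4me3 lists. They count only the bases inside the window, and the widths of the whole regions were not read. The pregranulosa lists are also those in which H3K4me3 at Runx1 P2 was widest and H3K27me3 there narrowest, and the part of other cells in that result was not tested. Csf1r, among the targets above, instead carried H3K4me3 in Sertoli cells alone, over 840 bp. Of 4 germ cell markers, Ddx4 was unmarked in all 4, Dazl carried H3K4me3 alone in all 4, and Pou5f1 and Dppa3 differed.

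The promoters most like each member were found by the mean absolute difference in covered length over the 8 lists, among 22265 protein-coding genes. For Runx1 P2 the nearest was Hs3st3b1, with a mean difference of 30.9 bp, followed by Icam5 (91.1 bp). For Runx2 P2 the lengths compared were those within 2 kb of the first start, not those of the wider window given above. That stretch was covered in full by both marks in every list, except by H3K4me3 in XY progenitors. The nearest was Hic1, with a difference of 0.0 bp, followed by Bcl11a and Ccnd1 (5.2 bp each). With cover this full, a small difference says little about likeness. Only the nearest few genes were listed, so others at 5.2 bp would not be named. For Runx3 P2 the nearest were Fxyd7 (21.4 bp) and Foxd3 (66.2 bp), and for Cbfb they were Nbeal1 (26.2 bp) and 2400003C14Rik (27.8 bp). For the P1 promoters of Runx1, Runx2 and Runx3 the nearest were Prlh (42.1 bp), Oasl1 (1.8 bp) and Agxt (2.8 bp).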

How the data were processed

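H3, H3K4me3 and H3K27me3 were profiled by native, MNase-based ChIP-seq on 24 samples. The authors trimmed reads with Trim Galore, aligned them to mm9 with Bowtie, handled them with SAMtools and called peaks with HOMER against H3. Their methods describe calling on each replicate and joining replicates for display. The deposited files hold 1 list per mark and population, the headers of the 4 progenitor lists name joined replicates, and the names of the other 4 do so too, so all lists were taken as pooled. The submitters' processing notes name these tools without versions. The deposited files were 8 peak lists with chromosome, start, end and a score, and the deposited score was the same for every peak, so only positions were used. Per the file headers of 6 lists, peaks had a size of 1000 bp (H3K4me3) or 5000 bp (H3K27me3) and at least 4 times the input, with a Poisson p-value over input of 1.00e-04. The other 2 lists, both of pregranulosa cells, have no header.

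Overlapping peaks of a list were joined into regions, since the H3K27me3 lists differ in whether this had been done. Starts came from GENCODE M1 on NCBIM37, with older symbols matched through RefSeq synonyms, and no peak ran past a chromosome end. Sequences were read from NCBIM37, and the one upstream of Runx2 P2 is not reported here. Shares carry exact (Clopper-Pearson) 95% intervals, which cover counting error only and neither depth nor replicates. No test was run between pooled lists. Genes of the partner, target and marker lists are named with values where their state differed, up to 6 a list in alphabetical order, and neighbours and most similar promoters by fixed rules; the other genes named were chosen as examples after their values were seen. The members and lists were chosen with earlier results of these data known. The joining of peaks, the covered lengths and the grouping of starts into promoters were tested on simulated data, and the other steps were not. Python 3.11.15, NumPy 2.4.6, SciPy 1.17.1 and matplotlib 3.10.9 were used.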

Additional observations from a re-analysis of the deposited data

Results flagged for a closer look

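At 3 gene bodies the percent covered moved one way from XY progenitor to Sertoli cells and the other way from XX progenitor to pregranulosa cells. For H3K27me3 in Runx1 the differences were 22.8 and -4.46 percentage points, and in Runx3 they were 19.6 and -11.2 percentage points. For H3K4me3 in Runx2 they were 0.761 and -1.15 percentage points. Each difference compares 1 pooled list with another, and the difference between the lineages was not tested.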

How the results depend on the processing

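Of 96 promoter counts recomputed under the alternatives, 70 were identical to the reported count and 94 were within 1.5 times of it. The other 2 came with at least 50% of the window covered, where pregranulosa cells had 3 promoters with H3K27me3 and 2 bivalent promoters. Under that setting Runx2 P1 was unmarked in all 4 lists, Runx1 P1 was unmarked in pregranulosa cells, and Runx3 P2 kept both marks in XX progenitors alone. With the start itself inside a region, Runx1 P1 was unmarked in pregranulosa cells and Runx3 P2 carried H3K27me3 alone in Sertoli cells.

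The summed gene body cover changed under several choices, and the larger changes are given in XY progenitor, XX progenitor, Sertoli and pregranulosa cells as named. No error interval is given for this cover, because the bases of a region are not independent. For H3K27me3, the widest 75% of regions gave 18.6% in XY progenitor, 42.0% in Sertoli and 20.0% in pregranulosa cells, and lists reduced to the shortest list of the mark gave 42.0% in Sertoli and 20.0% in pregranulosa cells. The longest protein-coding transcript in place of the gene gave 24.0%, 23.0%, 51.7% and 23.6%. For H3K4me3, the widest 75% gave 3.59%, 6.60%, 3.92% and 5.69%. The shortest list gave 7.27% in XX progenitor and 7.02% in pregranulosa cells. Regions within 1 kb joined gave 4.0% in XY progenitor and 5.68% in Sertoli cells, and the longest transcript gave 3.65%, 7.86% and 5.21% in the first 3 populations. Sertoli cells had the highest H3K27me3 cover at each Runx gene with the widest 75% of regions, the shortest list and regions joined within 1 kb. The widest 75% and the shortest list both kept the widest regions of a list, so neither could drop the long Sertoli regions. No paired analysis was possible because each list pools both replicates, and for the same reason no replicate could be left out. Depth differs between lists and is unknown for pregranulosa cells, so a mark not called is not shown to be absent.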
